A study of Ovis aries with 30 samples.

Results

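Cytosolic ribosomal protein genes were read out in the liver of 30 lambs. They were taken by symbol, as every gene row named RPL or RPS with a number and an optional A, L or X, together with RPLP0, RPLP1, RPLP2 and RPSA and without the RPS6K kinases. The rule found 77 of the 31304 gene rows, 32 of the small and 45 of the large ribosomal subunit, and 75 of them held enough counts to be tested. The lambs were first-generation offspring of ewes exposed to biosolids, which are processed sewage sludge spread as fertiliser, before conception and during gestation, or of control ewes. There were 8 biosolids females, 8 control females, 7 biosolids males and 7 control males, each library named by the lamb's tag number. Neither the lambs' breed and age nor a litter or processing day is in the labels, and the tags of biosolids and control lambs do not overlap, so that a difference between flocks or days cannot be told apart from exposure. All lambs were read as whole frozen liver, where fewer cells of a type and less RNA per cell cannot be told apart.

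The cytosolic ribosome is built of a small subunit, which decodes the messenger RNA, and a large subunit, which joins amino acids and carries the exit tunnel of the growing chain. Its proteins are made in nearly matched amounts by every nucleated cell, and their short messengers start with an oligopyrimidine tract (TOP) through which mTORC1 and its partner LARP1 control translation. In liver they support the synthesis of plasma proteins. Several of them have roles outside the ribosome, among them RPL5 and RPL11, which bind and restrain the p53 ligase MDM2 in human cells when ribosome assembly is disturbed.

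Libraries held 24.1 to 42.8 M (mega-counts) in biosolids females, 29.8 to 39.1 M in control females, 18.7 to 43.3 M in biosolids males and 32.7 to 51.9 M in control males. The library of biosolids male 8778 stood apart, with 87.5% of its counts on rows of ribosomal RNA against 0.299 to 7.69% in the other libraries, and 75354 counts on the ribosomal protein genes. In the main fit, median fold changes over ribosomal protein genes in comparisons with biosolids males are given with and without it. Some counts are given with all lambs only. Hepatocyte markers such as ALB and APOA1 were measured for 14 of 15 genes, none of them at 0 in all lambs, and summed to between 69140 and 135600 CPM (counts per mega-count of the TMM-scaled library size) over all lambs.

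Levels between genes were compared per kilobase of annotated exon. RPS2, a small-subunit protein near the messenger's entry channel, was highest with a mean over lambs of 1349 CPM per kilobase, and RPLP1 and RPLP0 were also among the 5 highest, at 919 and 716 CPM per kilobase. The median gene had 260.0 CPM per kilobase. Of the 75 genes tested, RPS24, RPL37A, RPL35A, RPL23A and RPL3L were lowest, at 39.3, 17.4, 13.5, 3.66 and 0.130 CPM per kilobase. The annotated exons of some low genes are long, 5745 bases for RPL37A and 2231 bases for RPL35A against 514 bases for RPLP1, so that their level per kilobase depends on the gene model as well as on the counts. The same holds for RPS6, the target of the S6 kinases, with 6021 bases of exon, 238 CPM and 39.5 CPM per kilobase. On the scale of CPM alone RPS2 was again highest, at 1674 CPM, and the 5 genes with most counts took 23.9% of all counts of the group.

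**Figure D1:**
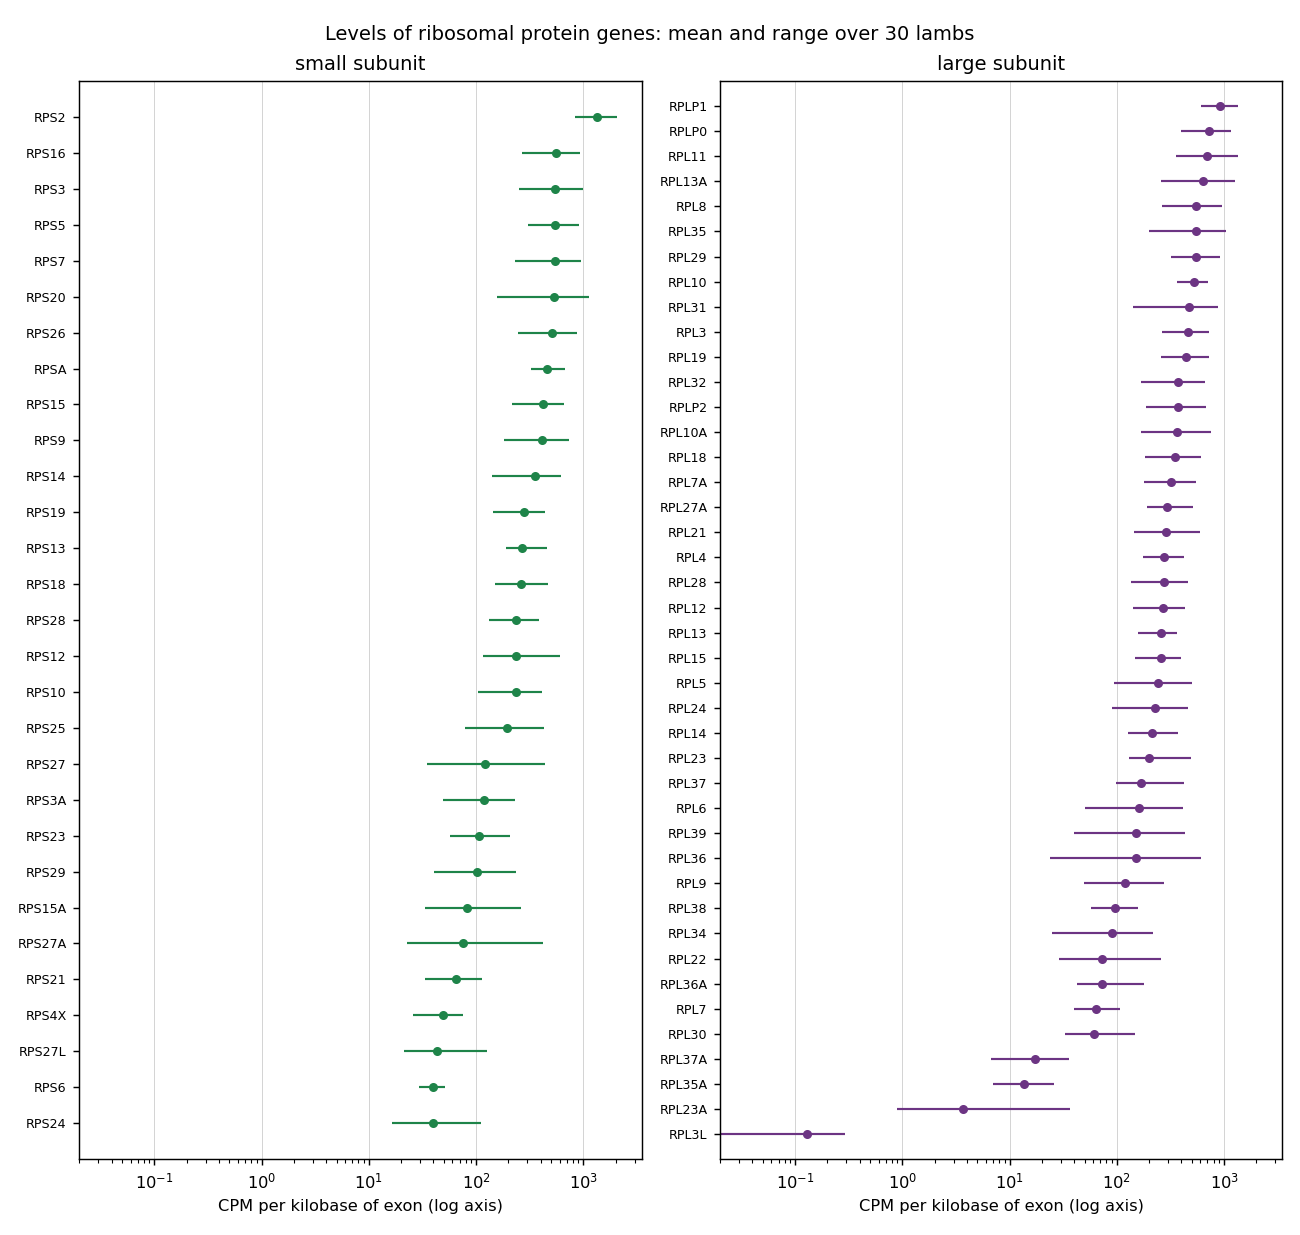
Mean level (point) and range over 30 lambs (line) of 71 of the 75 tested ribosomal protein genes, in CPM per kilobase of exon on a log axis, with small-subunit genes at left and large-subunit genes at right. Means run from 0.130 for RPL3L to 1349 for RPS2; the line of RPL3L reaches 0, which a log axis cannot show.

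Some of the genes share exon bases with a neighbour, where a read can be assigned to either row or to none. RPL27 (chromosome 11, 42789090 to 42791581 in assembly ARS-UI_Ramb_v3.0) had 0 counts in all 30 lambs. For counts given to the row, this allows at most 0.0604 to 0.0993 CPM in 29 libraries and 1.06 CPM in that of 8778, counting error only (a floor of 3 counts). All of its 636 exon bases, 100% of them, lie within exons of the IFI35 row on the same strand, so its counts cannot be told apart from those of that row. The 0 therefore sets no limit on the level of the RPL27 messenger. RPL23A (chromosome 11, 20092031 to 20095162) shared 9.73% of its exon bases with a gene on its own strand and 36.9% with RAB34 on the opposite strand. RPS6 and RPSA shared 53.6% and 24.2% of their exon bases with a gene of the opposite strand, which matters only if counting ignored strand. Near-identical processed copies of ribosomal protein genes are common in mammalian genomes, and how the authors treated reads that fit several places is not stated in the sources used, so every level is uncertain to that extent. RPL17, RPL26, RPL41 and RPL39L had no row under those symbols and were not analysed here.

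The paralogs that replace a common ribosomal protein in other tissues were near the floor in this liver. RPL3L (chromosome 24, 2031114 to 2038310), which replaces RPL3 in heart and skeletal muscle, had a lowest, median and highest level of 0.0971, 0.323 and 0.439 CPM in biosolids females, 0.0515, 0.204 and 0.467 CPM in control females, 0, 0.138 and 0.203 CPM in biosolids males, and 0, 0.0896 and 0.427 CPM in control males. The biosolids male at 0 was 8778, where the limit is 1.06 CPM. RPL3 itself had a median of 785 CPM in biosolids females, 791 CPM in control females, 445 CPM in biosolids males and 456 CPM in control males. RPL10L (chromosome 7, 37929808 to 37930452), the testis counterpart of RPL10, had 0 counts in all 30 lambs, with the same limits in CPM as the RPL27 row. RPS27L, a paralog of RPS27 that p53 induces in human cells, was the exception among the paralogs, with 22.4 CPM over all lambs beside 77.4 CPM for RPS27, or 43.4 and 122 CPM per kilobase.

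The share of counts on ribosomal protein genes differed 3.56-fold between lambs. With ribosomal RNA rows left out of the total, the lowest, median and highest share was 1.15%, 2.88% and 3.56% in biosolids females, 1.10%, 2.53% and 3.44% in control females, 1.15%, 1.33% and 3.90% in biosolids males, and 1.12%, 1.23% and 2.21% in control males. All groups overlapped. The widest gap in the ordered shares lay between 1.38% and 1.90%, with 13 lambs below it and 17 above. Of those below, 2 were biosolids females, 2 control females, 4 biosolids males and 5 control males, and of those above, 6 were biosolids females, 6 control females, 3 biosolids males and 2 control males. Libraries of the lambs below the gap held 32.3 to 51.9 M counts and those above it 18.7 to 42.8 M. Whether depth has a part in the gap was not tested.

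**Figure D2:**
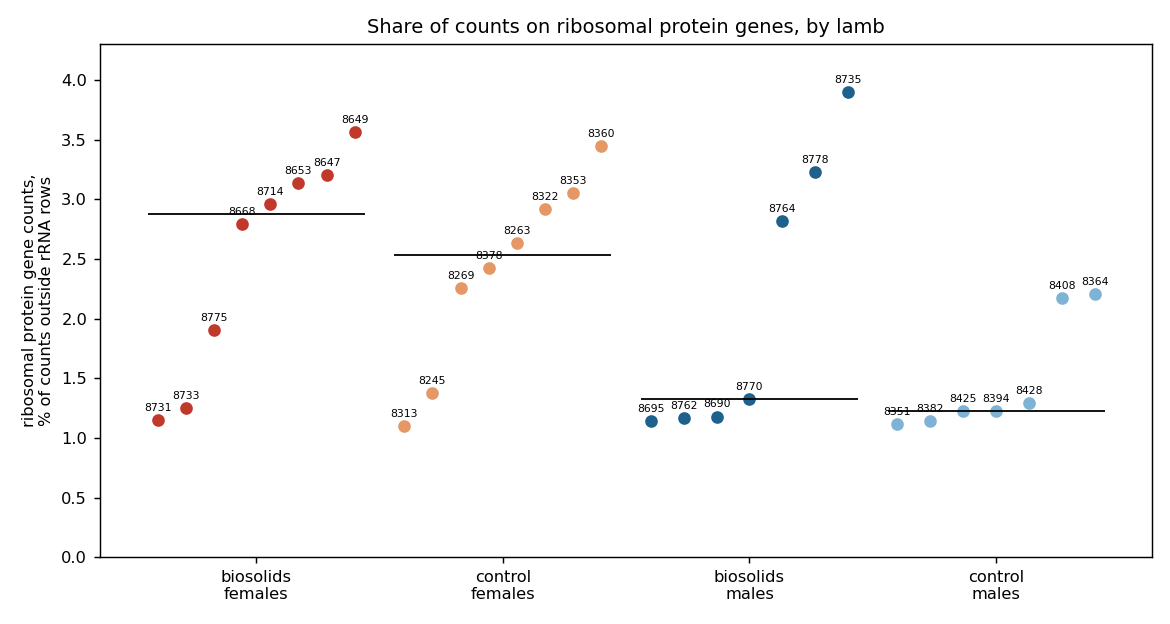
Counts on ribosomal protein genes as a percentage of all counts outside ribosomal RNA rows, 1 point per lamb labelled by its tag number, with the group median as a bar. Each of the 4 groups has lambs at or below 1.38% and at or above 1.90%, and none between; the medians are 2.88% in biosolids females, 2.53% in control females, 1.33% in biosolids males and 1.23% in control males.

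The genes moved together across lambs. In lambs below the gap, 0 to 10 of the 75 tested genes stood above their own median over all lambs, and in lambs above the gap 26 to 75 did. The gap was set on the summed counts of these same genes. Low counts below it and high counts above it are therefore largely built in, and are a description, not a test. Biosolids female 8653 had all 75 above their median, while biosolids male 8695 and control male 8425 had 0. The lowest lamb was control female 8313 for 20 genes, biosolids male 8690 for 20 and biosolids male 8762 for 10. The highest lamb was biosolids male 8778 for 36 genes, biosolids male 8735 for 15 and biosolids female 8649 for 11; without the library of 8778 it was 8649 for 31, 8735 for 22 and control female 8360 for 10. By group median, control males were lowest for 53 genes, biosolids males for 21 and biosolids females for 1. Biosolids females were highest for 58 genes, control females for 14 and biosolids males for 3. These counts by group median include the library of 8778 and were not repeated without it. They were not made over all tested genes, so whether this order is particular to the ribosomal protein genes was not tested.

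**Figure D3:**
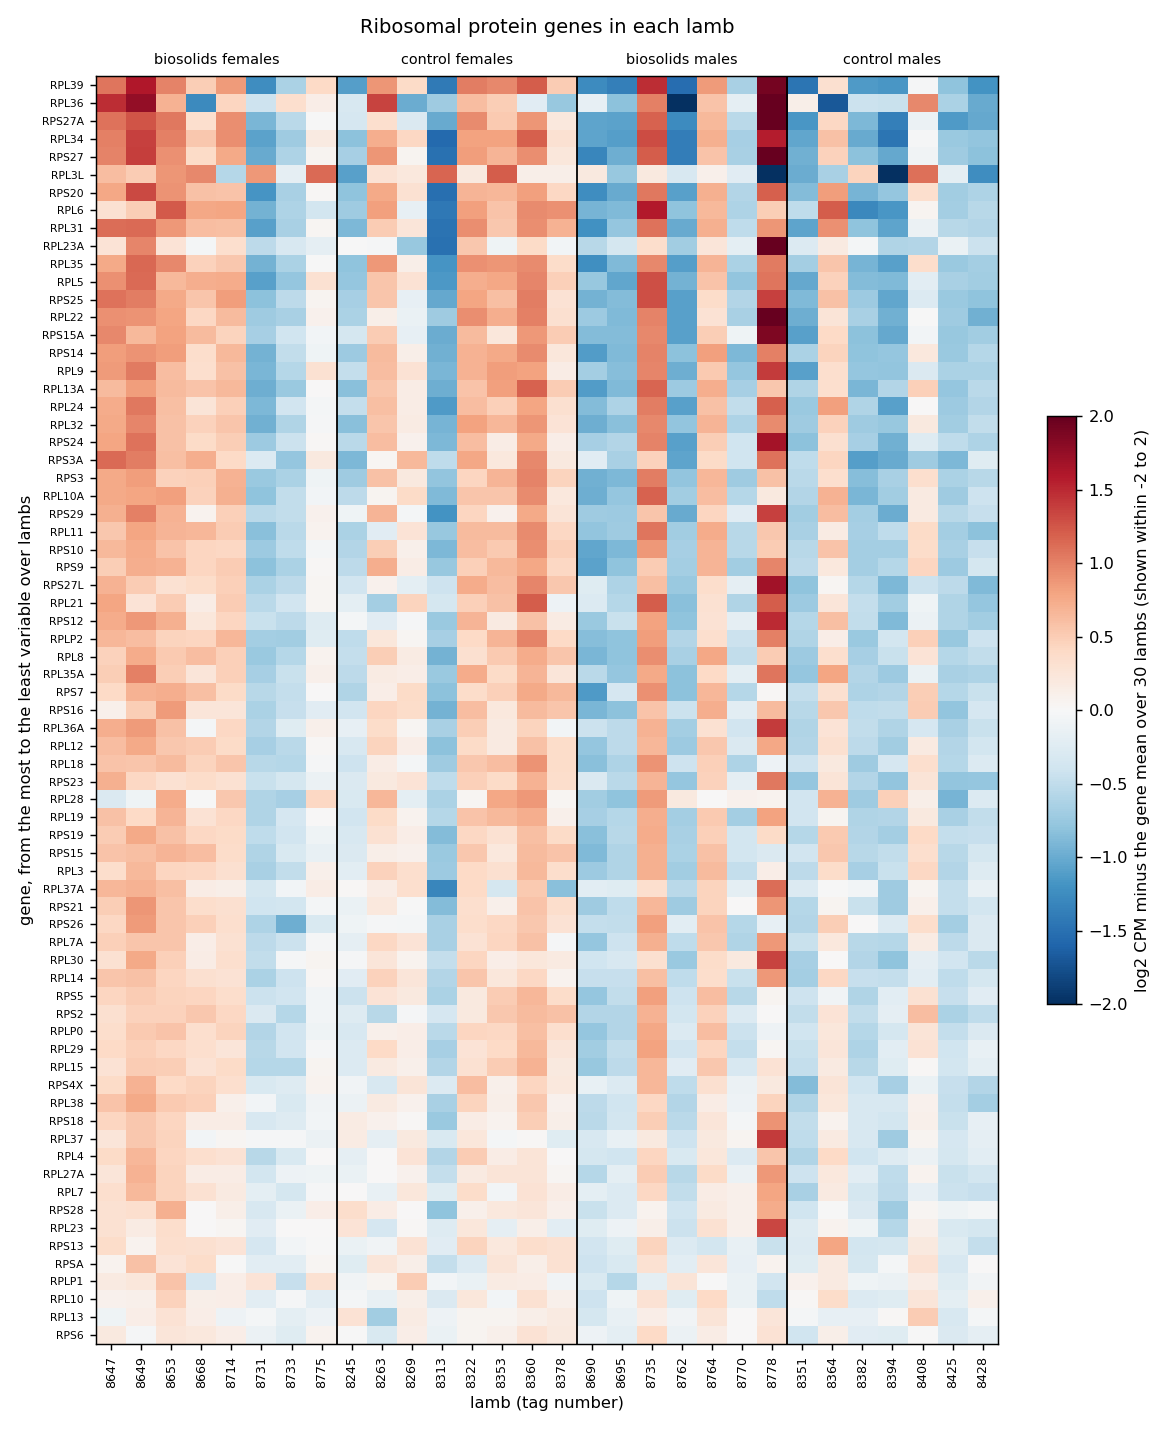
Level of 71 of the 75 ribosomal protein genes (rows, from the most to the least variable) in each of 30 lambs (columns, by group), as log2 CPM minus the gene's mean over lambs, drawn within -2 to 2. Whole columns are high or low together in every group, and the bottom rows (RPS6, RPL13, RPL10, RPLP1, RPSA) vary least.

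The genes differed in how far they followed this shared movement. RPL39 (chromosome X, 114699458 to 114702812), a small protein lining the exit tunnel, varied most, with a standard deviation over lambs of 1.10 on the log2 scale. Its lowest, median and highest level was 18.4, 70.3 and 133 CPM in biosolids females, 16.3, 71.4 and 101 CPM in control females, 15.2, 27.8 and 165 CPM in biosolids males, and 15.9, 19.9 and 54.3 CPM in control males. RPL36, RPS27A, RPL34 and RPS27 came next, at 1.04, 1.02, 0.99 and 0.96, or 0.95, 0.88, 0.96 and 0.89 without the library of 8778, where RPL39 had 1.06. RPS27A is made as a fusion with ubiquitin, and its lowest, median and highest level was 18.1, 53.9 and 81.2 CPM in biosolids females, 16.8, 41.0 and 65.7 CPM in control females, 14.1, 23.4 and 248 CPM in biosolids males, and 13.2, 16.7 and 45.3 CPM in control males. All 4 groups overlapped for both genes, and lamb 8778 was the highest for each.

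At the other end, RPS6 had a standard deviation of 0.20 on the log2 scale, RPL13 of 0.23, RPL10 of 0.25, and RPLP1 and RPSA of 0.27 each. RPS6 lay between 200 and 279 CPM in biosolids females, 192 and 287 CPM in control females, 206 and 309.5 CPM in biosolids males, and 178 and 255 CPM in control males. RPSA, also known as a laminin receptor at the cell surface, had medians of 567 CPM in biosolids females, 593 CPM in control females, 489 CPM in biosolids males and 531 CPM in control males. RPL10 (chromosome X, 80048958 to 80051400), which joins the large subunit late in assembly, had medians of 409 CPM in biosolids females, 391 CPM in control females, 350.2 CPM in biosolids males and 387 CPM in control males. Over the 74 genes that averaged 1 CPM or more, Spearman's correlation of this standard deviation across genes was -0.10 with exon length and -0.10 with level per kilobase, given as a description since the genes share the same 30 libraries. Without the library of 8778, the highest lamb was a median of 3.50-fold above the lowest over these genes, more than 2-fold for 70 of them and more than 4-fold for 26.

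Other short genes stood high and low in the same lambs. For each lamb, log2 CPM centred on each gene's mean was summarised by its median over 260 genes outside the ribosomal proteins with under 800 bases of exon and over 3419 genes with at least 6000 bases, all averaging 5 CPM or more. The median of the ribosomal protein genes ran from -0.74 to 0.87 over lambs, that of the short genes from -0.53 to 0.46 and that of the long genes from -0.14 to 0.15. Ribosomal protein genes and short genes were on the same side of 0 in 30 of 30 lambs. Ribosomal protein genes and long genes were on opposite sides in 28 of 30, and both were above 0 in the other two. The part of transcript length or RNA quality in the movement of the ribosomal protein genes was not tested.

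**Figure D4:**
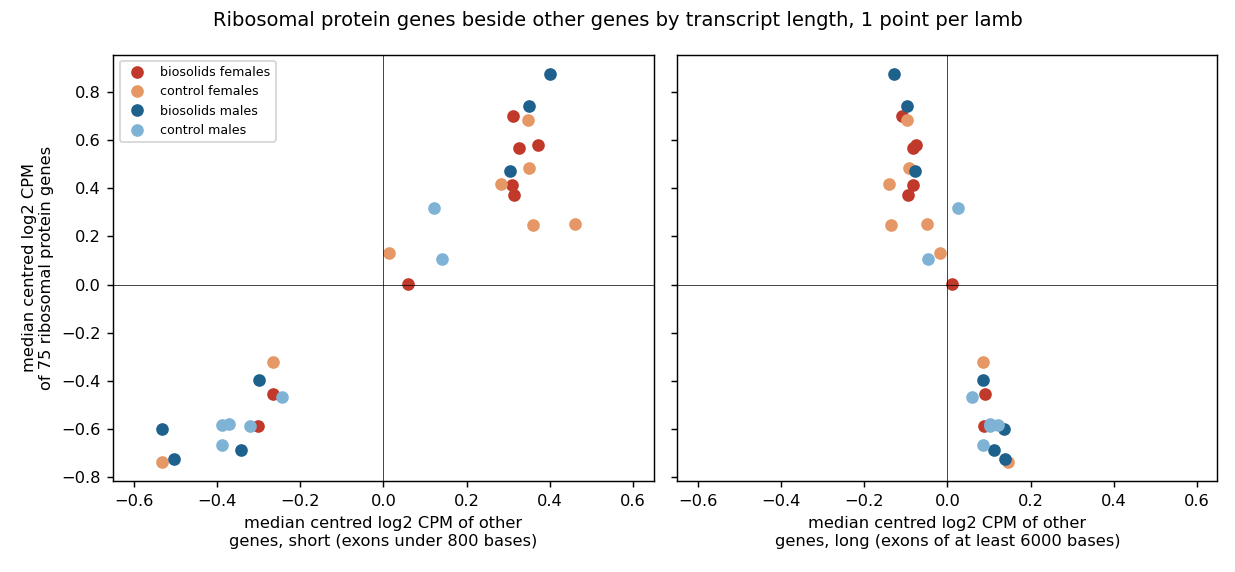
Median centred log2 CPM of the 75 ribosomal protein genes in each lamb against the same median over 260 other short genes (left) and 3419 long genes (right), 1 point per lamb coloured by group. Points of all 4 groups lie in both clouds at left, with the short genes between -0.53 and 0.46 and the ribosomal protein genes between -0.74 and 0.87, while the long genes run the other way over a smaller range.

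In females the first comparison asked whether ribosomal protein genes differed after exposure. By the quasi-likelihood test of edgeR, adjusted by Benjamini-Hochberg over all genes, 0 of the 75 were called at an adjusted p under 0.05, as were 0% of all 17840 genes tested. At an unadjusted p under 0.05 there were 0 higher, against 1.5% of all genes, and 0 lower, against 2.15%; DESeq2 and limma voom with sample weights also gave 0 and 0. The fitted mean was higher in biosolids females for 55 of the 75, against 45.9% of all genes, and lower for 20, against 54.1%, with a median log2 fold change of 0.08, where all genes had -0.02. Without control female 8313 the count fell to 29 of 75 and the median was -0.014, without biosolids female 8649 they were 37 and -0.0036, and without control female 8360 the count was 72.

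On the higher side, the 4 genes with the smallest p in females were all of the large subunit. RPL37A, a zinc-binding protein, had a lowest, median and highest level of 74.0, 104 and 152 CPM in biosolids females, against 38.1, 100.4 and 136 CPM in control females. Its fitted difference was 0.31 ± 0.23 on the log2 scale (SE; adjusted p by edgeR 1). The groups overlapped, and control female 8313 was the lowest lamb. RPL36 stood at 72.0 ± 45.8 CPM in biosolids females and 50.5 ± 31.8 CPM in the controls (SD, n = 8 each), a difference of 0.51 ± 0.50 on the log2 scale. RPL38 and RPL37 had 0.17 and 0.16 on the log2 scale. On the lower side RPL28, RPS16, RPS27L and RPL13A had -0.16, -0.12, -0.11 and -0.08, all smaller than their standard errors of 0.26 to 0.34.

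In males the fitted mean was higher in biosolids lambs for 72 of the 75 genes, against 51.3% of all genes, and lower for 3, against 48.7%, with a median log2 fold change of 0.40, where all genes had 0.01. No gene passed by edgeR's test, 0 of 75 and 0% of all genes, and DESeq2 and voom called 0 as well. At an unadjusted p under 0.05, 16 of the 75 were higher and 0 lower, against 3.29% and 2.15% of all genes. DESeq2 gave 19 and voom 9 higher, but the share of all genes at that p was counted by edgeR only. Without biosolids male 8778, 70 genes had a higher fitted mean, the median was 0.21 and RPL30 was the 1 gene at an unadjusted p under 0.05; without biosolids male 8735 the median was 0.25 with 8 such genes, and without control male 8364 it was 0.52 with 30. The 260 other short genes had a median of 0.16 in the same comparison, the 1507 genes with 2000 to 3000 bases of exon -0.07 and the 3419 long genes -0.03; without 8778 these were 0.08, -0.06 and -0.01. With the short genes' level as a covariate, chosen after the data were seen, the median of the 75 was 0.11, and with 2 surrogate variables it was -0.01.

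RPL30, a small protein at the subunit interface that in yeast represses its own splicing, had the smallest p in males. Its lowest, median and highest level was 19.8, 38.3 and 85.5 CPM in biosolids males, against 19.1, 23.1 and 33.4 CPM in control males. The fitted difference was 0.66 ± 0.22 on the log2 scale (SE; adjusted p by edgeR 0.816). The groups overlapped, and lamb 8778 was the highest; without it the difference was 0.39. RPS27L stood at 26.1 ± 18.6 CPM in biosolids males and 13.8 ± 3.45 CPM in the controls (SD, n = 7 each), a log2 difference of 0.86 ± 0.30, or 0.50 without 8778. RPS27A had 1.49 ± 0.53, or 0.59 without that lamb.

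The 3 genes with a lower fitted mean in biosolids males were RPLP1, RPS13 and RPL10. RPLP1, an acidic protein of the stalk that recruits elongation factors, stood at 414 ± 79.8 CPM in biosolids males and 463 ± 49.9 CPM in the controls (SD, n = 7 each), a log2 difference of -0.16 ± 0.15. RPS13 had -0.14 ± 0.18 and RPL10 -0.08 ± 0.15. These differences are about the size of their standard errors or smaller, and RPS13 had 0.06 without control male 8364.

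**Figure D5:**
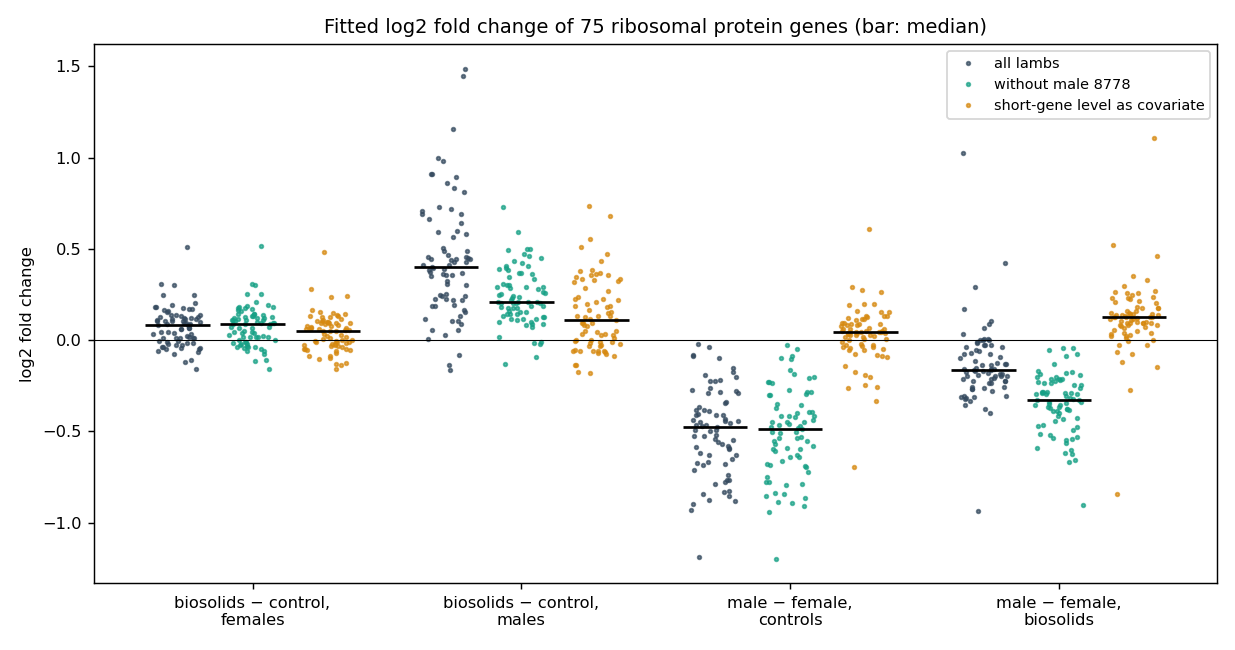
Fitted log2 fold changes of the 75 ribosomal protein genes (points) with their median (bar) in 4 comparisons, for all lambs, without biosolids male 8778, and with the level of other short genes as a covariate. With all lambs the medians are 0.08 and 0.40 for biosolids minus control in females and males, and -0.47 and -0.16 for males minus females in controls and in biosolids lambs; with the covariate they are 0.05, 0.11, 0.04 and 0.12.

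Averaged over both sexes, 71 of 75 genes had a higher fitted mean in biosolids lambs, against 48.9% of all genes, and 4 a lower one, against 51.1%, with a median of 0.23. None passed by edgeR (0% of all genes). At an unadjusted p under 0.05, 10 were higher and 0 lower, against 2.11% and 2.2% of all genes. DESeq2 gave 13 and voom 6, with no share of all genes counted. RPL30 had 0.39 ± 0.15 and RPS27A 0.89 ± 0.36, both at 0.943 as the adjusted p by edgeR, while RPS13 had -0.08 ± 0.12 and RPLP1 -0.05 ± 0.10. The interaction, the male effect of exposure less the female one, was positive for 69 of 75, against 53.4% of all genes, and negative for 6, against 46.6%, with a median of 0.33. No gene passed this test of the difference (0% of all genes), and at an unadjusted p under 0.05 there were 1 positive, against 2.23% of all genes, and 0 negative, against 1.41%. The positive gene was RPS27L at 0.97 ± 0.41 (adjusted p by edgeR 0.951), and DESeq2 gave 1 and voom 0. RPLP1 had -0.23 ± 0.20 and RPL10 -0.12 ± 0.20. Without the library of 8778 the median over both sexes was 0.16, with 70 of 75 higher and 1 gene at an unadjusted p under 0.05, and that of the interaction 0.18, with 62 of 75 positive and none at that p; without biosolids male 8735 they were 0.16, with 7 such genes, and 0.18. With 2 surrogate variables the interaction's median was -0.09.

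Among controls, all 75 genes had a lower fitted mean in males than in females, against 54.6% of all genes, with a median log2 fold change of -0.47, where all genes had -0.04. None of the 75 passed by edgeR, while 0.0617% of all genes were called higher and 0.0224% lower in males. At an unadjusted p under 0.05, 15 of the 75 were lower and 0 higher, against 11.1% and 7.74% of all genes. DESeq2 gave 25 lower and called 0, and voom gave 63 lower and called 1, RPS4X. The share of all genes at that unadjusted p was counted by edgeR only, so 25 and 63 cannot be set against all genes. The other short genes had a median of -0.39, with 224 of 260 lower and 86 of them at an unadjusted p under 0.05, while genes of 2000 to 3000 bases had a median of 0.08 and long genes of 0.09. With the short genes' level as a covariate the median of the 75 turned to 0.04, and with 2 surrogate variables to 0.15. Without control female 8360 the median was -0.41, with 6 genes lower at an unadjusted p under 0.05, and without control male 8364 it was -0.63, with 47.

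RPS27L had the smallest p in this comparison. Its lowest, median and highest level was 10.9, 13.6 and 20.8 CPM in control males, against 15.1, 25.5 and 40.0 CPM in control females. The fitted difference was -0.88 ± 0.29 on the log2 scale (SE; adjusted p by edgeR 0.201). The groups overlapped, as control females 8313, 8245 and 8269, at 15.1, 15.6 and 17.8 CPM, lay below control male 8364 at 20.8 CPM. RPS4X (chromosome X, 64859349 to 64863596), whose human copy escapes X inactivation and has a Y-linked partner, had 44.1, 58.4 and 96.8 CPM in control males, against 64.8, 90.3 and 124 CPM in control females. It differed by -0.52 ± 0.19 on the log2 scale by edgeR (adjusted p = 0.213) and by -0.70 (adjusted p = 0.0470) by limma voom with sample weights, the only call in any of these comparisons and tools. Over the other alternatives its adjusted p ran from 0.0985 by edgeR without control male 8364 to 0.9999 with 2 surrogate variables. RPL30 had -0.54 ± 0.21 and RPS23, a protein of the decoding centre, -0.62 ± 0.25, with adjusted p of 0.218 and 0.220.

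In biosolids lambs, the fitted mean was higher in males for 13 of the 75 genes and lower for 62, each against 50% of all genes, with a median of -0.16. Without biosolids male 8778 there were 0 higher and 75 lower, with a median of -0.33, and without biosolids male 8690 there were 26 higher, with a median of -0.07. None of the 75 passed by edgeR, while 0.0841% of all genes were called higher and 0.0112% lower in males. At an unadjusted p under 0.05 there were 0 higher and 1 lower, against 2.39% and 2.46% of all genes. Without 8778 there were 0 higher and 2 lower at that p, beside 558 and 656 of all 17840 genes. With all lambs, DESeq2 gave 1 lower and voom gave 30 lower with a median of -0.48, with no share of all genes counted by either. The median was 0.12 with the short-gene covariate and 0.07 with 2 surrogate variables. The gene lower by edgeR with all lambs was RPLP1. It stood at 414 ± 79.8 CPM in biosolids males (n = 7) and 514 ± 113 CPM in biosolids females (SD, n = 8). The log2 difference was -0.31 ± 0.15 (adjusted p by edgeR 0.969). RPL23A had 1.03 ± 0.51, and without biosolids male 8778 it had -0.34. RPL3L, near the floor, had -0.93 ± 0.50. All 6 comparisons draw on the same 30 libraries, so that those of exposure and of sex share lambs and are not independent of each other.

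By place in the ribosome, the small-subunit and large-subunit genes had medians close to each other. In females 25 of 32 small-subunit and 30 of 43 large-subunit genes had a higher fitted mean in biosolids lambs, against 45.9% of all genes. Their medians were 0.09 and 0.06. In males it was 31 of 32 and 41 of 43, against 51.3% of all genes, with medians of 0.43 and 0.39. Without biosolids male 8778 it was 30 and 40, with 0.22 and 0.21. Between control males and control females the medians were -0.50 and -0.47, and all were lower, against 54.6% of all genes. The difference between the subunits was not tested.

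The stalk of the large subunit is formed by RPLP0, which anchors it, and the acidic RPLP1 and RPLP2. RPLP0 (chromosome 17, 62695968 to 62700026) had a lowest, median and highest level of 503, 957 and 1116 CPM in biosolids females, 518, 887 and 1144 CPM in control females, 438, 623 and 1280 CPM in biosolids males, and 504, 592 and 903 CPM in control males. It overlapped between all groups. RPLP2 had medians of 204 CPM in biosolids females, 187 CPM in control females, 112 CPM in biosolids males and 113 CPM in control males, and RPLP1 of 534 CPM in biosolids females, 464 CPM in control females, 405.5 CPM in biosolids males and 443 CPM in control males. As a ratio of the highest to the lowest group median, RPLP1 varied least of the 3. The 3 genes had medians of 0.01 in females and 0.19 in males (0.15 without 8778) for biosolids against control, and -0.38 for males against females in controls.

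RPL5 and RPL11 bind each other and the ribosomal RNA of the same early particle, and are 2 of the 9 measured proteins reported to bind MDM2 in human cells. RPL5 (chromosome 1, 70032189 to 70040346) had a lowest, median and highest level of 100.3, 345 and 466.2 CPM in biosolids females, 96.7, 305 and 419 CPM in control females, 104, 127 and 522 CPM in biosolids males, and 105, 132 and 293 CPM in control males. RPL11 had medians of 556 CPM in biosolids females, 490 CPM in control females, 263 CPM in biosolids males and 246 CPM in control males. For biosolids against control, 7 of the 9 genes had a higher fitted mean in females, against 45.9% of all genes, with a median of 0.07. In males all 9 were higher, against 51.3% of all genes, with a median of 0.49, or 0.39 without 8778. Between control males and females all 9 were lower, against 54.6% of all genes, with a median of -0.67. The p53 response genes, a list that includes MDM2 and CDKN1A, had medians of -0.04, -0.02 and -0.11 in these comparisons, with 0 of 15 called by edgeR. Single genes differed from these medians. In the same order, CDKN1A had log2 fold changes of 0.44 ± 0.22, -0.14 ± 0.23 and 0.42 ± 0.22, and MDM2 0.16 ± 0.16, 0.24 ± 0.18 and -0.29 ± 0.17 (SE).

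Of the ribosomal proteins mutated in human Diamond-Blackfan anaemia, 16 of 18 were tested. They had a higher fitted mean in biosolids lambs for 13 in females, against 45.9% of all genes, with a median of 0.09. In males it was 16, against 51.3% of all genes, with a median of 0.42, or 0.20 without 8778. Between control males and control females 16 were lower, against 54.6% of all genes, with a median of -0.48. RPS24 was among those that varied widely, with medians of 140.4 CPM in biosolids females, 114 CPM in control females, 78.6 CPM in biosolids males and 67.7 CPM in control males. RPS26 had medians of 233 CPM in biosolids females, 197 CPM in control females, 155 CPM in biosolids males and 147 CPM in control males. Both overlapped between all groups.

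Of the members, 4 lie on the X chromosome. RPL10, RPL39, RPL36A and RPS4X had a median of 0.11 in females and 0.51 in males (0.35 without 8778) for biosolids against control, and -0.51 for males against females in controls, where all members had -0.47. RPL36A (chromosome X, 133064041 to 133067409) had a lowest, median and highest level of 22.7, 41.0 and 62.0 CPM in biosolids females, 21.9, 36.8 and 48.1 CPM in control females, 21.3, 26.3 and 89.8 CPM in biosolids males, and 21.7, 24.3 and 41.6 CPM in control males. RPL10 had a log2 fold change of -0.02 ± 0.14 between control males and females and RPL39 one of -1.19 ± 0.51, the members that varied among the least and the most over lambs.

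Among genes of related ribosomal proteins that the symbol rule leaves out, FAU, a fusion that carries the small-subunit protein S30, had medians of 274 CPM in biosolids females, 245 CPM in control females, 139 CPM in biosolids males and 136 CPM in control males. Among controls FAU had a log2 fold change of -0.64 ± 0.34 in males against females. RPL22L1, a paralog that can stand in for RPL22, had -1.37 ± 0.52 (adjusted p by edgeR 0.218), at a median of 1.10 CPM in control males against 3.67 CPM in control females.

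Translation factors and other genes with TOP messengers were described beside the ribosomal proteins. Of 24 tested, 10 had a higher fitted mean in biosolids females, against 45.9% of all genes, and 17 in biosolids males, against 51.3%. The medians were -0.05 and 0.15 (0.10 without 8778), and none passed by edgeR. Between control males and females 16 were lower, against 54.6% of all genes, with a median of -0.30, and 1 was called lower, against 0.0224% of all genes. That gene was EIF2S3 (chromosome X, 22410954 to 22454178), the gamma subunit of initiation factor eIF2, which fell to 44.6 ± 13.6 CPM in control males (n = 7), against 76.8 ± 16.7 CPM in control females (SD, n = 8), a log2 difference of -0.78 ± 0.15 (adjusted p by edgeR 0.0216). The control groups overlapped, as the highest control male had 66.9 CPM and the lowest control female 55.1 CPM. In biosolids lambs EIF2S3 stood at 45.5 ± 6.47 CPM in males and 73.6 ± 9.30 CPM in females, and did not pass (adjusted p by edgeR 0.0806). The elongation factor gene EEF1A1 had medians of 2349 CPM in biosolids females, 2354 CPM in control females, 2463 CPM in biosolids males and 2322 CPM in control males, while EEF1B2, with 805 bases of exon, had 131 CPM in biosolids females, 132 CPM in control females, 59.5 CPM in biosolids males and 56.4 CPM in control males.

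Genes that make or regulate ribosomes had medians nearer to 0 than the ribosomal proteins. The 43 tested genes of ribosome biogenesis had medians of 0.06 in females and -0.04 in males for biosolids against control and 0.03 for males against females in controls. The 26 genes that connect mTORC1 to TOP messengers had 0.02, -0.01 and 0.01. Their median in males was 0.01 without 8778. Medians near 0 do not mean that single genes stayed level. In the fit without 8778, 6 of the 26 were higher and 6 lower in control males than in control females. These were at an unadjusted p under 0.05 by edgeR, beside 1494 higher and 2194 lower of all 17840 genes. The 74 tested mitochondrial ribosomal protein genes had 0.03, 0.18 and -0.29, with 63 higher in biosolids males, against 51.3% of all genes, and 66 lower in control males, against 54.6%. Without 8778 the male median was 0.10, with 54 higher. Of the 66, 22 were at an unadjusted p under 0.05, against 11.1% of all genes, led by MRPS28 at -0.56 ± 0.18. None of the genes of these lists passed by edgeR.

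Markers of cell types were set beside the ribosomal proteins. For biosolids against control males, the 14 hepatocyte markers had a median of -0.16, with 13 lower, and summed to 76010 to 126000 CPM in biosolids males and 101800 to 135600 CPM in control males. The stellate cell and fibroblast markers had a median of -0.14 there and summed to 285 to 882 CPM in biosolids males and 615 to 853 CPM in control males. For males against females in controls, hepatocyte markers had a median of 0.34 and the 15 stellate cell and fibroblast markers one of 0.55, which summed to 615 to 853 CPM in control males and 328 to 590 CPM in control females. The 11 cholangiocyte markers had a median of -0.03, with 5 higher and 6 lower, and summed to 559.9 to 705 CPM in control males and 325 to 561 CPM in control females. The 10 T and NK cell markers had a median of -0.45 in that comparison and summed to 26.3 to 65.7 CPM in control males and 33.9 to 137 CPM in control females. The macrophage marker CD68 had 0 counts in all lambs. The part of the cell makeup in the values of the ribosomal protein genes was not tested.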

How the data were processed

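Whole liver of 30 lambs was sequenced from TruSeq RNA libraries, per the labels' protocols. The deposited unit is whole-number gene counts, not normalized, in 1 table with a column per lamb, beside a deposited column of exon length in bases; 0 columns were left without a lamb. Trimmomatic, STAR, featureCounts 1.5.0-p3, FastQC and MultiQC are named, without roles, per the submitters' processing notes. The build, the use of strand and the treatment of multiply mapped reads are not given in the sources used here. Of 31304 gene rows, 7 were broken over 25 lines and joined; 28862 matched RefSeq by symbol, and all 28855 that could be compared had the start and end of assembly ARS-UI_Ramb_v3.0.

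The model was fitted with edgeR 4.0.16 in R 4.3.3: filterByExpr (17840 genes), TMM scaling and 1 robust quasi-likelihood model with 4 group means and 26 residual degrees of freedom (biological coefficient of variation 35.2%). Tests were two-sided, adjusted over all genes by Benjamini-Hochberg and called under 0.05. Shares of all genes at an unadjusted p under 0.05 were counted by edgeR only. P-values measure the spread between lambs, taken as independent. CPM values use TMM-scaled library sizes, log2 CPM a prior count of 2, and intervals for a count of 0 a floor of 3 counts, counting error only. The code was tested on simulated counts. Alternatives were RLE scaling, all genes kept, a filter of 1 CPM in at least 15 libraries, ribosomal RNA rows left out, DESeq2 1.42.0, voom with sample weights in limma 3.58.1, 2 surrogate variables from sva 3.50.0, and leaving out each lamb; the short genes' level as a covariate was chosen after seeing the data, as were the medians over the genes by DESeq2, voom, surrogate variables and the other filters. Python 3.11.15 with pandas 2.3.3 and matplotlib 3.10.9 made the summaries and figures.

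The members and gene lists were chosen with earlier results of these data known. Named genes are the 4 with the smallest p in each direction (2 in both sexes together, the interaction and sex in biosolids lambs), the 5 highest and 5 lowest per kilobase, fixed members such as RPLP0, RPS6, RPL5 and RPS4X, and the 2 to 4 members of other lists with the smallest p. The most and least variable genes, RPS24, RPS26, and the values of FAU, EEF1A1, EEF1B2, MDM2, CDKN1A and IFI35 were named after their values were seen. So were the values of RACK1. Values of a few single genes are not reported here; counts and medians over lists include every tested gene.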

Additional observations from a re-analysis of the deposited data

Results flagged for a closer look

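Of 136 sets of values in a group, each the CPM of a named gene or a summary over the ribosomal protein genes, 15 had 1 lamb whose gap to the next, relative to the group's range, passed Dixon's limit. For a single set chance gives about 1 in 20. The sets share lambs, and many of the genes were named for a small p, so 15 of 136 cannot be judged against that rate. The limit was passed most often by biosolids male 8778, whose library was mostly ribosomal RNA. It held 27.0 CPM of RPL23A (group median 1.65), 85.5 CPM of RPL30 (38.3), 239.6 CPM of RPL36 (40.6), 157 CPM of RPL37 (61.7), 248 CPM of RPS27A (23.4) and 65.3 CPM of RPS27L (18.0). In the same group, biosolids male 8735 held 188 CPM of RPS13 (median 114).

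Control male 8364, 1 of the 2 control males with a high share of ribosomal protein counts, held 47.9 CPM of RPL35A (group median 18.0), 41.6 CPM of RPL36A (24.3), 293 CPM of RPL5 (132), 239.8 CPM of RPS13 (114) and 20.8 CPM of RPS27L (13.6). In females, biosolids female 8653 held 528 CPM of RPL10 (median 409), biosolids female 8649 held 3.81 CPM of RPL23A (2.08) and control female 8269 held 660.0 CPM of RPLP1 (464).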

How the results depend on the processing

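No paired analysis was possible because the groups share no replicate numbers. No ribosomal protein gene was called by any of the edgeR or DESeq2 settings, and limma voom with sample weights called 1 (RPS4X, in control males against control females). The sign of the median log2 fold change over the 75 genes turned in 8 cases. In biosolids against control females it was -0.014 without control female 8313 and -0.0036 without biosolids female 8649. With 2 surrogate variables it was -0.012 for biosolids against control males, -0.087 for the interaction, 0.15 for males against females in controls and 0.068 for males against females in biosolids lambs. With the short genes' level as a covariate it was 0.043 and 0.12 for the sexes in controls and in biosolids lambs. The cause was not tested.

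Leaving out 1 lamb at a time, the median ran from -0.014 to 0.16 in females, 0.21 to 0.52 in males, 0.16 to 0.32 over both sexes, 0.18 to 0.47 for the interaction, -0.63 to -0.41 for the sexes in controls and -0.33 to -0.07 for the sexes in biosolids lambs. Without biosolids male 8690 the last median was -0.07, and without 8778 -0.33. The count at an unadjusted p under 0.05 ran from 1 to 30 in males, and from 6 to 47 for the sexes in controls. For single genes with all lambs, the sign turned by voom for RPL28, RPS27L and RPL13A in females (0.053, 0.013 and 0.11), and for RPL23A (-0.29; -0.32 by DESeq2) in biosolids lambs by sex. With 1 lamb left out, RPS27L in females ran from -0.19 to 0.011, RPL13A in females from -0.20 to 0.078, RPS13 from -0.27 to 0.063 in males and from -0.15 to 0.018 over both sexes, and in biosolids lambs by sex RPL23A from -0.34 to 1.23. Counts were too few for a test of RPL27 and RPL10L, at 0 in all lambs.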
